A study of Mus musculus with 12 samples.

Results

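Chromatin modifiers and remodelers were examined as 39 genes of the 770 on a mouse cancer panel, all of which had a value in each of the 12 samples. They were taken by gene symbol from a list of chromatin genes, drawn up with earlier results of these data known, and fell into 8 histone deacetylases, 8 histone methyltransferases and demethylases, 6 SWI/SNF subunits, 4 genes of DNA methylation and 13 other regulators. RNA was counted with nCounter color-coded probes, and each value is a normalized signal on the linear scale from which a background level had been subtracted.

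The samples were 5 ocular lesions, 4 control eyes and 3 medulloblastomas, each from an individual mouse. *RBS* lesions came from Rax-creERT2::Ctnnb1(ex3)Fl/+SmoM2Fl/+ embryos given tamoxifen at E8.5, in which the *Rax* promoter drives an inducible Cre in retinal precursor cells, Cre removes exon 3 of *Ctnnb1* and so stabilizes beta-catenin, and active *Smo* is switched on. They were collected at E18.5 from the orbit, where they took the place of most of the eye. Control eyes came from E18.5 embryos that carried the same Ctnnb1(ex3)Fl/+SmoM2Fl/+ alleles without Cre. The labels give no tamoxifen day for the control eyes. Shh-MBs came from the hindbrain of hGFAP-cre::SmoM2Fl/+ mice at 14 days, in which the human *GFAP* promoter drives Cre. They had active *Smo* but no *Ctnnb1* allele, so genotype, tissue and age cannot be told apart between Shh-MBs and the eyes.

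DNA in the nucleus is wound around histones, and enzymes that add or remove acetyl and methyl groups on histone tails, methylate the DNA itself or slide histones along it set which genes can be read. Deacetylases and the Polycomb methyltransferase EZH2 are mostly linked to silencing, acetyltransferases and the SWI/SNF remodeling complex mostly to active genes. Several of these regulators are replication-coupled and are made mainly in dividing cells, while others are abundant in neurons, and mutations in several of them occur in medulloblastoma.

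Depth was taken as the total signal divided by the median step between neighboring low values, with very small steps left out. It was 335392 to 637795 counts above background in *RBS* lesions, 590200 to 716684 in control eyes and 541092 to 707210 in Shh-MBs. One count was worth 0.81 to 1.64 units of signal, so among the members *Arid2*, with 1.12 to 9.82 units, was near the detection limit in every sample. The list of 19 proliferation genes on the panel had a summed signal of 5300 to 6547 in *RBS* lesions, 11190 to 13820 in control eyes and 13850 to 15580 in Shh-MBs. The list of 8 neuronal genes summed to 2888 to 3815, 966.1 to 1074 and 1126 to 1611 in the same order, and the list of 8 mesenchymal genes to 19840 to 36410, 25550 to 57830 and 1477 to 2100. These lists hold no gene specific to retina or cerebellum, so the tissue labels were not checked in that way.

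The comparison of *RBS* lesions with control eyes asks what differs between embryonic eyes in which both pathways were activated and eyes that carried the same alleles without recombination. *Setbp1*, *Hdac11* and *Dnmt3a* rose most in *RBS* lesions, by 1.23, 1.18 and 0.92 on the log2 scale. *Hells*, *Suv39h2* and *Ezh2* fell most, by 1.40, 0.93 and 0.62. Of the 39 members 20 passed the test (51.3%, against 51.2% of all 770 genes), 15 of them higher, where 33.0% of the panel was higher, and 5 lower, where 18.2% of the panel was lower. The groups did not overlap for 21 members (53.8%, against 43.4% of the panel). The median difference of the members was 0.23, and that of the panel was 0.17.

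**Figure D1:**
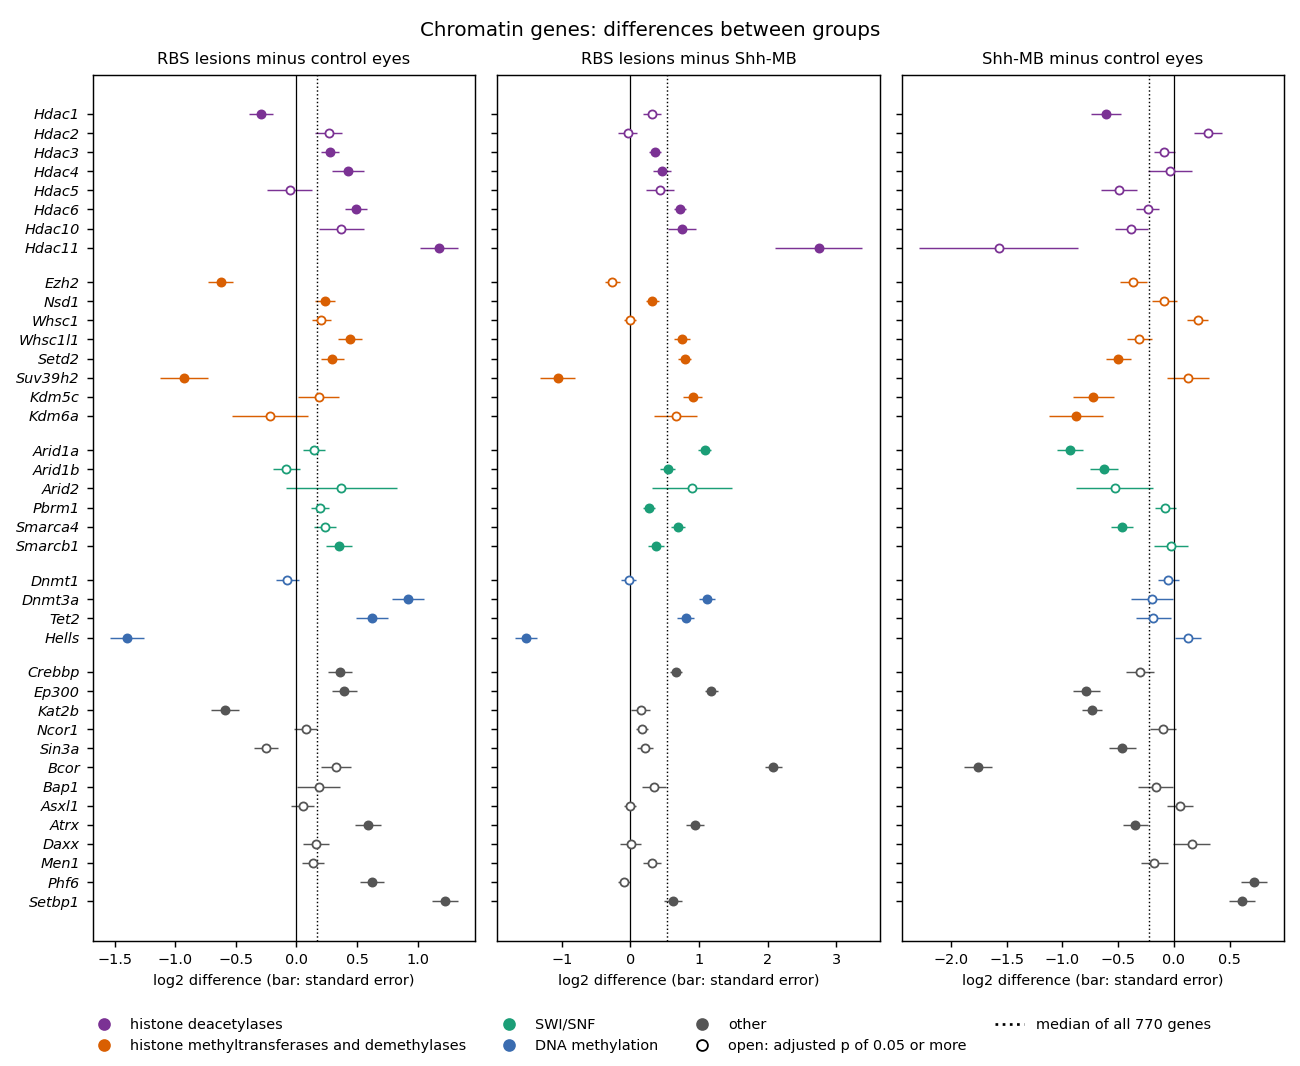
Differences of the 39 members in *RBS* lesions against control eyes, *RBS* lesions against Shh-MBs and Shh-MBs against control eyes, on the x axis as log2 differences with the standard error as bars; colors give the gene group, open points had an adjusted *p* of 0.05 or more, and the dotted line is the median of all 770 genes. *Hells* and *Suv39h2* lie far to the left in both comparisons of *RBS* lesions, and *Bcor* is the lowest member in Shh-MBs against control eyes at -1.76.

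Against Shh-MBs, *RBS* lesions were higher in *Hdac11* by 2.75, in *Bcor* by 2.08 and in *Ep300* by 1.18 on the log2 scale, and lower in *Hells* by a difference of -1.52 and in *Suv39h2* by one of -1.06. This comparison sets lesions with beta-catenin and *Smo* activation beside tumors with *Smo* activation alone. The test was passed by 23 members (59.0%, against 60.8% of the panel), 21 of them higher in *RBS* lesions, where 48.1% of the panel was higher, and 2 lower, where 12.7% of the panel was lower. The groups did not overlap for 25 members (64.1%, against 59.9% of the panel). Shh-MBs against control eyes had 14 members past the test (35.9%, against 41.0% of the panel), with 2 higher (panel 9.61%), *Phf6* and *Setbp1*, and 12 lower (panel 31.4%), and 21 members did not overlap (53.8%, against 48.2% of the panel). With a term for the Y-linked gene *Uty*, which was above 100 in all Shh-MBs, 18 members passed in *RBS* lesions against Shh-MBs (409 genes of the panel) and 6 in Shh-MBs against control eyes (182 genes), *Arid1a*, *Bcor*, *Ep300*, *Kat2b*, *Phf6* and *Setbp1*. Only 2 *RBS* lesions and 1 control eye had *Uty* above 100, so these differences are set by those eyes, and the spread of the single control eye is taken from the other samples. The comparisons share samples in pairs, and their values stand side by side only.

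The direction of many differences against Shh-MBs depended on how samples were scaled. Centring each sample on its median moved the panel's median difference from 0.17 to -0.01 in *RBS* lesions against control eyes, from 0.53 to -0.32 against Shh-MBs, and from -0.22 to 0.44 in Shh-MBs against control eyes. The split of members higher and lower then went from 15 and 5 to 7 and 6, from 21 and 2 to 3 and 19, and from 2 and 12 to 19 and 1. The panel's split went with it, from 254 and 140 to 177 and 177, from 370 and 98 to 181 and 319, and from 74 and 242 to 311 and 139. Quantile normalization gave 10 and 9, 11 and 14, and 9 and 6 in the same order, and scaling to the total signal without the 3 most abundant genes gave 12 and 6, 13 and 8, and 6 and 4. The panel's splits were 185 and 179, 203 and 236, and 223 and 149 with the former and 237 and 148, 273 and 164, and 160 and 177 with the latter. Under all 4 other scalings, 19 of the 20 members past the test against control eyes kept their direction, 9 of 23 did so in *RBS* lesions against Shh-MBs, and 8 of 14 in Shh-MBs against control eyes. Those that also passed the test in all 4 were *Hdac1*, *Hdac6*, *Hdac11*, *Ezh2*, *Suv39h2*, *Dnmt3a*, *Tet2*, *Hells*, *Kat2b*, *Atrx*, *Phf6* and *Setbp1* against control eyes, *Hdac11*, *Suv39h2*, *Hells*, *Ep300* and *Bcor* in *RBS* lesions against Shh-MBs, and *Bcor*, *Phf6* and *Setbp1* in Shh-MBs against control eyes.

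Histone deacetylases take acetyl groups off histones and other proteins. Against control eyes, 4 of the 8 rose in *RBS* lesions (panel 33.0%), *Hdac11*, *Hdac6*, *Hdac4* and *Hdac3*, and 1 fell (panel 18.2%), *Hdac1*. The other 3 did not pass the test, and the median difference of the 8 was 0.32, against 0.17 for the panel. Against Shh-MBs, 5 were higher in *RBS* lesions (panel 48.1%) and none was lower (panel 12.7%), but *Hdac3*, *Hdac4*, *Hdac6* and *Hdac10* had the opposite sign with median centring.

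*Hdac11*, the only class IV deacetylase, had a signal of 476, 324, 354, 482 and 395 in *RBS* lesions 1 to 5, of 195, 157, 205 and 156 in control eyes 1 to 4, and of 225, 27.7 and 32.0 in Shh-MBs 1 to 3. Every *RBS* lesion was above every control eye and every Shh-MB, and Shh-MB 1 stood above the control eyes while Shh-MBs 2 and 3 stood far below them. The signal of *RBS* lesions was 2.26-fold that of control eyes (log2 difference 1.18, SE 0.15, adjusted *p* = 0.00025). Against Shh-MBs it was 6.72-fold higher (log2 difference 2.75, SE 0.63, adjusted *p* = 0.00548), and the log2 difference was 3.71 without Shh-MB 1 and 1.90 with median centring. Between Shh-MBs and control eyes the log2 difference was -1.57 (adjusted *p* = 0.126), and without Shh-MB 1 it was -2.53 (adjusted *p* = 0.000141). The neuronal list summed to 1611 in Shh-MB 1 and to 1151 and 1126 in Shh-MBs 2 and 3, the blood and immune list to 301.4 against 167.9 and 164.5, and the endothelial list to 234.8 against 129.0 and 155.4. Other lists went the other way, the mesenchymal list with 1477 against 2096 and 2100 and the proliferation list with 13850 against 15580 and 14970. The part of cell types or proliferation in the difference between the tumors was not tested.

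*Hdac6*, a mainly cytoplasmic deacetylase that acts on tubulin, had a signal of 255, 284, 273, 289 and 274 in *RBS* lesions, of 211, 211, 183 and 178 in control eyes, and of 167, 166 and 164 in Shh-MBs. The 3 groups did not overlap. The log2 difference was 0.49 (SE 0.09, adjusted *p* = 0.00145) in *RBS* lesions against control eyes. *Hdac3*, the catalytic subunit of the NCoR corepressor complex, is also a reference gene of the panel, by which samples may have been scaled. Its signal was 716, 749, 765, 787 and 795 in *RBS* lesions, 632, 618, 599 and 667 in control eyes, and 556, 602 and 622 in Shh-MBs. All *RBS* lesions lay above all samples of the other groups, by 0.28 on the log2 scale against control eyes (adjusted *p* = 0.0126), which did not pass at 0.10 with median centring (adjusted *p* = 0.355) and 0.07 with quantile normalization (adjusted *p* = 0.251). The difference of 0.36 against Shh-MBs (adjusted *p* = 0.00801) turned to -0.48 with median centring and -0.11 with quantile normalization, and was -0.013 when samples were scaled to their totals. Scaled to the 19 other reference genes, 19 members rose and 5 fell against control eyes, and 262 and 137 genes of the panel did.

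*Hdac1* and *Hdac2* are close paralogs and catalytic subunits of the same Sin3, NuRD and CoREST complexes. *Hdac1* fell by 0.29 on the log2 scale in *RBS* lesions (adjusted *p* = 0.0339), from 710 to 850 in control eyes to 584 to 738, where *RBS* lesion 4 lay within the range of the control eyes, and leaving out any of 6 of the 9 samples ended the call. *Hdac2* had 2098 to 2803 in *RBS* lesions, against 2003 to 2383 in control eyes, a log2 difference of 0.27 (adjusted *p* = 0.072). The class IIa enzyme *Hdac4*, which shuttles between nucleus and cytoplasm, rose by 0.43 (adjusted *p* = 0.025), from 56.6 to 89.7 up to 93.8 to 107, and lost its call without *RBS* lesion 2 or control eye 1, with median centring (0.25, adjusted *p* = 0.145) and with quantile normalization (0.29, adjusted *p* = 0.056), while the log2 difference of the related *Hdac5* was -0.06 (adjusted *p* = 0.821). *Hdac10*, an enzyme that acts on polyamines, had 28.8 to 53.0 in *RBS* lesions, against 25.8 to 36.5 in control eyes.

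Histone methyltransferases and demethylases write and erase methyl groups on histone lysines. Of the 8, 3 rose in *RBS* lesions against control eyes (panel 33.0%), *Whsc1l1*, *Setd2* and *Nsd1*, and 2 fell (panel 18.2%), *Suv39h2* and *Ezh2*. The other 3 did not pass the test, and the median difference of the 8 was 0.20, against 0.17 for the panel. *Hells*, the remodeler of the DNA methylation group that is needed for methylation of repeats, fell with *Suv39h2* and *Ezh2*. These 3 genes fell most of all members, and the 250 bases before the start site that the RefSeq promoter table gives for each, build GRCm38.p6, are therefore shown 5′ to 3′ on the strand of the gene: *Hells* chr19:38930740-38930989, plus strand, *Suv39h2* chr2:3474987-3475236, minus strand, and *Ezh2* chr6:47595031-47595280, minus strand. Capitals mark a match to an E2F motif, the letters TTTCCCGC, TTTGGCGC, TTTCGCGC or TTTGGCGG on either strand, to which cell cycle transcription factors of the E2F family can bind.
Hells: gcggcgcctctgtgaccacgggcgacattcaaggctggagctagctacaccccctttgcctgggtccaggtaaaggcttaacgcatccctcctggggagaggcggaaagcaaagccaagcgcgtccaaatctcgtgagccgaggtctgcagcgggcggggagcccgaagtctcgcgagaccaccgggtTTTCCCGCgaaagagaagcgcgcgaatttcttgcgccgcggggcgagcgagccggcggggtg
Suv39h2: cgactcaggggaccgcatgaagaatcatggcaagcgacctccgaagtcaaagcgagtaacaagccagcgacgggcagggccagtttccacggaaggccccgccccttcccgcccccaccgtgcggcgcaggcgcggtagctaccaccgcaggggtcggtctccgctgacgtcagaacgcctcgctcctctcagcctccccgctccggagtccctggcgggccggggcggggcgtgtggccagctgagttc
Ezh2: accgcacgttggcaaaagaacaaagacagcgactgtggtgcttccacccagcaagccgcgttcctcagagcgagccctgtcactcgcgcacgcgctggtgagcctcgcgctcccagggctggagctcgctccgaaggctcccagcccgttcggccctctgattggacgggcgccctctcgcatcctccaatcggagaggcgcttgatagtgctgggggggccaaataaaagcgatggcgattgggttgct

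The *Hells* promoter held 1 match, TTTCCCGC, which ended 54 bases before the start site, and neither other promoter held one in this window. The gene record of RefSeq begins further upstream than this start site for *Hells*, so that all 250 bases lie inside it, and for *Ezh2*, where 240 do. GC content was 65.6%, 69.6% and 63.6%, and the windows held 28, 27 and 23 CpG sites. Promoters were given for 30 of the 39 members, and 4 of these genes (13.3%) had a match at 1 start or more, *Hdac6*, *Arid1a*, *Dnmt1* and *Hells*, against 1.96% of all 32851 promoters of the same length. By start, 4 of 43 (9.30%) had a match. The CHR element TTTGAA, searched on both strands, was in a promoter of *Hdac6*, *Dnmt1*, *Kat2b* and *Asxl1* and in 16.0% of all promoters. No promoter was given for *Arid2*, *Hdac1*, *Hdac3*, *Hdac10*, *Nsd1*, *Phf6*, *Setbp1*, *Whsc1* and *Whsc1l1*.

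*Hells* had a signal of 186, 262, 236, 175 and 182 in *RBS* lesions, of 554, 588, 482 and 552 in control eyes, and of 534, 626 and 621 in Shh-MBs. The highest *RBS* lesion had less than any sample outside the group, and control eyes and Shh-MBs overlapped. The mean was 208 ± 38.5 (SD, n = 5) in *RBS* lesions, 544 ± 44.9 (n = 4) in control eyes and 594 ± 51.5 (n = 3) in Shh-MBs. It was thus 2.64-fold higher in control eyes than in *RBS* lesions (log2 difference -1.40, SE 0.14, adjusted *p* = 6.5e-05) and 2.88-fold higher in Shh-MBs than in *RBS* lesions (log2 difference -1.52, SE 0.16, adjusted *p* = 9e-05), the latter being -2.37 with median centring and -2.04 with quantile normalization. Shh-MBs and control eyes had a log2 difference of 0.13 (adjusted *p* = 0.433), but *Hells* was higher in Shh-MBs at 0.79 with median centring (adjusted *p* = 0.00784), 0.33 with quantile normalization (adjusted *p* = 0.043) and 0.44 when scaled to the total (adjusted *p* = 0.0222).

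*Suv39h2*, a methyltransferase that marks heterochromatin, had a signal of 109, 178, 202, 131 and 199 in *RBS* lesions, of 293, 368, 281 and 282 in control eyes, and of 260, 335 and 421 in Shh-MBs. All *RBS* lesions lay below all other samples. The log2 difference was -0.93 (SE 0.20, adjusted *p* = 0.00416) against control eyes and -1.06 (SE 0.25, adjusted *p* = 0.00676) against Shh-MBs, the latter being -1.90 with median centring. *Ezh2*, the methyltransferase of a Polycomb repressive complex, had a signal of 777, 955, 923, 835 and 858 in *RBS* lesions, of 1218, 1555, 1312 and 1285 in control eyes, and of 936, 1081 and 1108 in Shh-MBs. Control eyes were above both other groups, and Shh-MBs overlapped with *RBS* lesions at their low end. The mean in control eyes was 1.54-fold that in *RBS* lesions (log2 difference -0.62, SE 0.10, adjusted *p* = 0.000894), and the log2 difference between *RBS* lesions and Shh-MBs was -0.26 (adjusted *p* = 0.0734). In *Ezh2* the latter passed the test at -1.11 with median centring (adjusted *p* = 0.00052), -0.69 with quantile normalization (adjusted *p* = 0.00123) and -0.64 when scaled to the total (adjusted *p* = 0.00249).

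Beside these 3 genes, the proliferation list was lower in *RBS* lesions: 15 of its 19 genes fell against control eyes (panel 18.2%) and none rose, with a median difference of -1.11. Against Shh-MBs 15 were lower (panel 12.7%), with a median of -1.34. No gene of the list was at the lowest value of a sample. The part of proliferation in the change of *Hells*, *Suv39h2* and *Ezh2* was not tested, and in these bulk samples fewer cells of a type and less RNA per cell cannot be told apart.

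**Figure D2:**
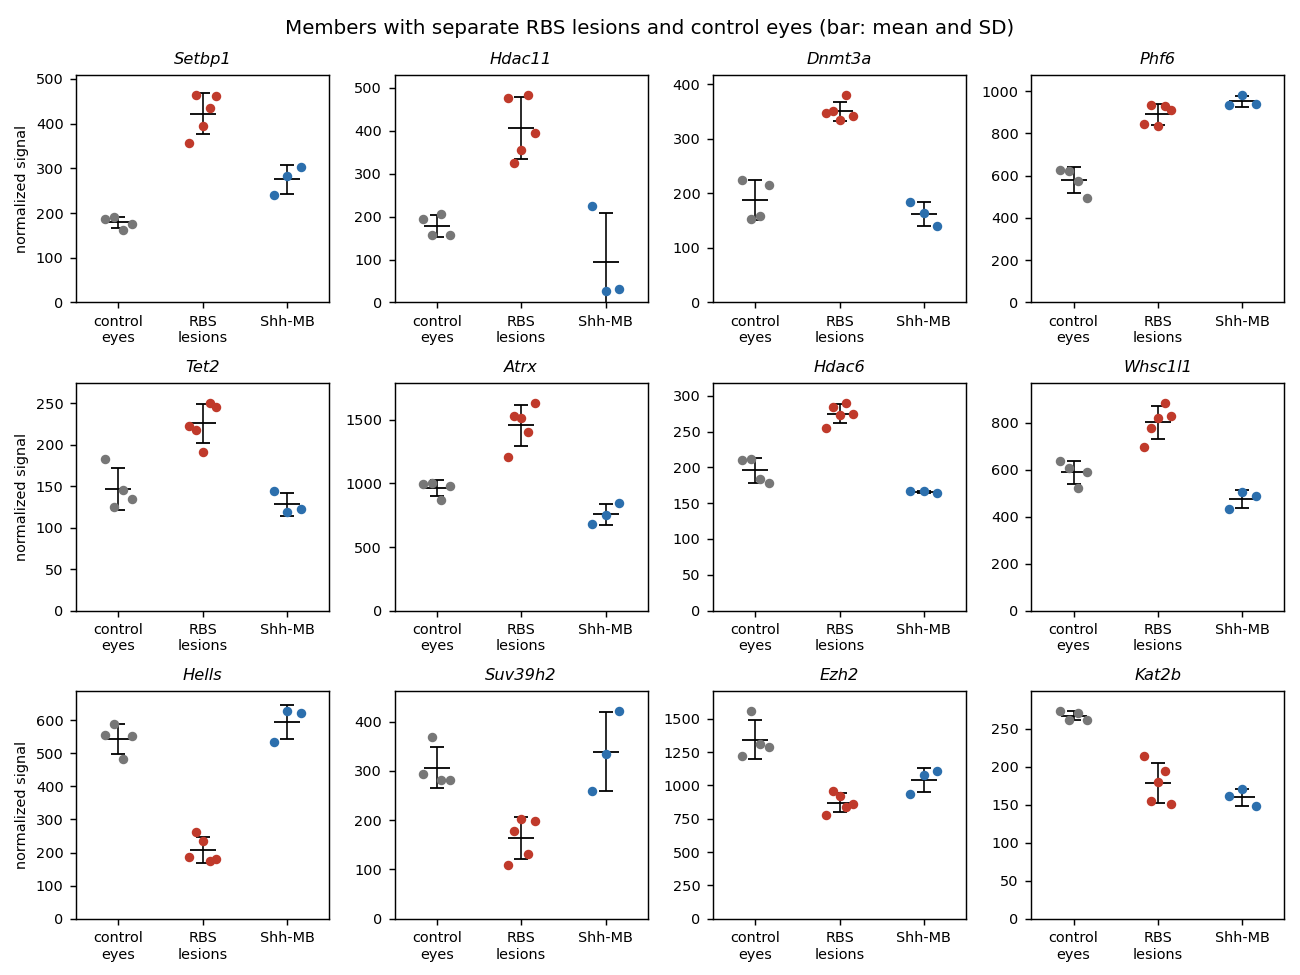
Normalized signal in each sample for the 12 members that passed the test in *RBS* lesions against control eyes, had groups without overlap and were named by rule; points are samples of control eyes, *RBS* lesions and Shh-MBs on the x axis, bars are the mean and SD, and each y axis starts at 0. *Setbp1*, *Hdac11* and *Dnmt3a* are above the control eyes in all 5 *RBS* lesions, and *Hells*, *Suv39h2*, *Ezh2* and *Kat2b* are below them.

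The 3 NSD methyltransferases *Nsd1*, *Whsc1* (now *Nsd2*) and *Whsc1l1* (now *Nsd3*) are related enzymes that methylate histone H3 in transcribed and intergenic regions. *Whsc1l1* had a signal of 696, 781, 823, 884 and 828 in *RBS* lesions, of 637, 608, 523 and 591 in control eyes, and of 431, 506 and 488 in Shh-MBs. The groups did not overlap, and control eyes lay between the others. The log2 difference was 0.44 against control eyes (SE 0.10, adjusted *p* = 0.00478) and 0.75 against Shh-MBs (adjusted *p* = 0.000545), which with median centring were 0.26 (adjusted *p* = 0.0629) and -0.09. *Nsd1* rose by 0.24 (adjusted *p* = 0.0342), a difference that was -0.01 with quantile normalization and lost its call without any 1 of 7 samples. *Whsc1*, at 1536 to 1712 in *RBS* lesions, against 1278 to 1470 in control eyes, had a log2 difference of 0.21 (adjusted *p* = 0.0556). *Setd2*, which methylates histone H3 along transcribed genes, rose by 0.30 (adjusted *p* = 0.0275), though its lowest *RBS* lesion, at 818, lay below the highest control eye, at 838. The *Setd2* difference did not pass at 0.12 with median centring (adjusted *p* = 0.372), 0.07 with quantile normalization (adjusted *p* = 0.409) and 0.23 when scaled to the total (adjusted *p* = 0.0558).

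*Kdm5c* and *Kdm6a* are X-linked histone demethylases that escape X inactivation, so that female cells express both copies. The Y-linked gene *Uty* had a signal above 100 in 2 *RBS* lesions, 1 control eye and all 3 Shh-MBs, and sex is not in the labels. *Kdm6a* had 62.8 and 97.3 in the 2 *RBS* lesions with *Uty* and 151 to 156 in the 3 without, 89.6 in the control eye with *Uty* and 148 to 178 in the 3 without, and 66.1 to 84.6 in the Shh-MBs. Eyes with *Uty* differed from those without by -0.97 on the log2 scale among *RBS* lesions and by -0.81 among control eyes. Levels of *Kdm6a* thus split by *Uty* in both *RBS* lesions and control eyes.

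*Kdm6a* fell by 0.88 in Shh-MBs against control eyes (adjusted *p* = 0.0273), and among samples with *Uty*, 3 Shh-MBs and 1 control eye, the log2 difference was -0.27. The fit with a term for *Uty* rests on the same samples (adjusted *p* = 0.437), and the call held in 2 of the 7 fits that left out 1 sample. *Kdm5c* had a mean of 745 with *Uty* and 972 without in *RBS* lesions, of 555 and 857 in control eyes, and of 466 in Shh-MBs, all with *Uty*. Its log2 difference of 0.91 in *RBS* lesions against Shh-MBs (adjusted *p* = 0.000677) was 0.68 with the term for *Uty* (adjusted *p* = 0.00285) and 0.06 with median centring (adjusted *p* = 0.796). The one of -0.72 in Shh-MBs against control eyes (adjusted *p* = 0.0195) was -0.25 with the term for *Uty* (adjusted *p* = 0.294) and -0.06 with median centring (adjusted *p* = 0.818). Against control eyes, *RBS* lesions had a log2 difference of 0.18 in *Kdm5c* (adjusted *p* = 0.411), which was 0.26 with the term (adjusted *p* = 0.0356). In the other 4 X-linked members, eyes with *Uty* were compared with those without, in *RBS* lesions and control eyes in turn. These log2 differences were -0.10 and -0.12 in *Hdac6*, -0.13 and -0.24 in *Bcor*, -0.17 and -0.19 in *Atrx* and -0.14 and -0.01 in *Phf6*. The 2 *RBS* lesions with *Uty* lay below the 3 without in *Hdac6*, at 255 and 273 against 274 to 289, and in *Phf6*, at 833 and 842 against 912 to 934.

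**Figure D3:**
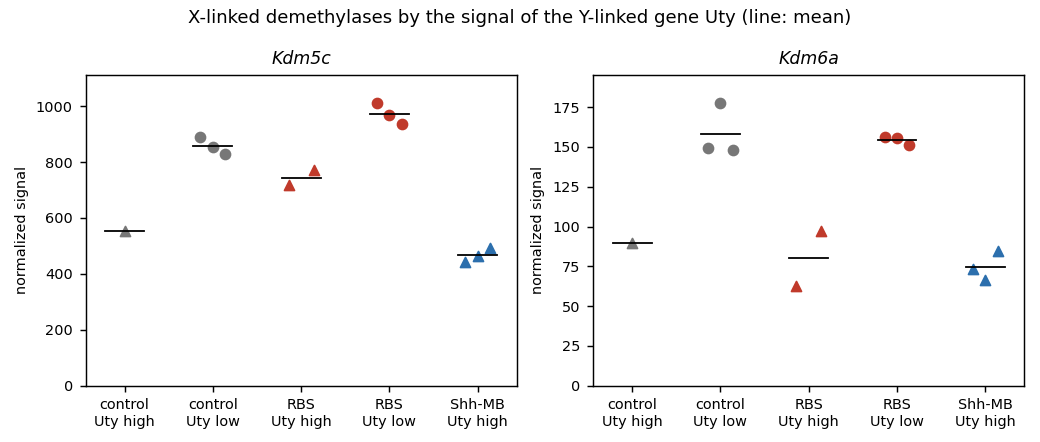
Normalized signal of the X-linked demethylases *Kdm5c* and *Kdm6a* in each sample on the y axis, split on the x axis by group and by whether the Y-linked gene *Uty* was above 100 (high) or not (low); lines are means. In *Kdm6a* the *RBS* lesions with high *Uty* had a mean of 80.1 and those with low *Uty* one of 154.

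SWI/SNF complexes use ATP to move or evict nucleosomes. Against control eyes 1 of the 6 subunits rose in *RBS* lesions (panel 33.0%), the core subunit *Smarcb1*, and none fell (panel 18.2%), with a median of 0.21. *Smarcb1*, whose loss defines rhabdoid tumors, had 422 to 486 in *RBS* lesions, against 308 to 412 in control eyes, a log2 difference of 0.35 (adjusted *p* = 0.022) that lost its call without control eye 1 or 4. It did not pass either at 0.17 with median centring (adjusted *p* = 0.322), 0.12 with quantile normalization (adjusted *p* = 0.435) and 0.29 when scaled to the total (adjusted *p* = 0.0679). Against Shh-MBs, 5 of the 6 were higher in *RBS* lesions (panel 48.1%) and none was lower (panel 12.7%). Their median was 0.62, against 0.53 for the panel, but *Arid1b*, *Pbrm1*, *Smarca4* and *Smarcb1* had the opposite sign with median centring.

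*Arid1a*, the DNA-binding subunit of the BAF form of the complex, was the subunit lowest in Shh-MBs relative to the eyes on the deposited scale. It had 1228, 1385, 1226, 1355 and 1259 in *RBS* lesions, 1291, 1234, 1085 and 1061 in control eyes, and 564, 617 and 649 in Shh-MBs. *RBS* lesions and control eyes overlapped, and the highest Shh-MB was far below the lowest eye. The signal was 2.12-fold higher in *RBS* lesions than in Shh-MBs (log2 difference 1.08, SE 0.10, adjusted *p* = 3.75e-05) and fell by 0.93 in Shh-MBs against control eyes (SE 0.11, adjusted *p* = 0.000709), but with median centring these were 0.24 (adjusted *p* = 0.202) and -0.27 (adjusted *p* = 0.233). They were smaller but passed the test at 0.65 and -0.69 with quantile normalization and at 0.71 and -0.62 when scaled to the total. Its log2 difference between *RBS* lesions and control eyes was 0.15 (adjusted *p* = 0.222).

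*Smarca4*, the ATPase of the complex, had 1995 to 2409 in *RBS* lesions, 1775 to 2081 in control eyes and 1328 to 1437 in Shh-MBs. It was higher in *RBS* lesions than in Shh-MBs by 0.70 (adjusted *p* = 0.00041; -0.15 with median centring) and lower in Shh-MBs than in control eyes by a difference of -0.46 (adjusted *p* = 0.00929; 0.20 with median centring). The PBAF subunit *Pbrm1* had 601 to 650 in *RBS* lesions, against 509 to 571 in control eyes, which did not overlap, with a log2 difference of 0.19 (adjusted *p* = 0.055).

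DNA methylation genes moved in opposite directions. *Dnmt3a*, which places new methyl groups on DNA, and *Tet2*, which oxidizes them, rose in *RBS* lesions against control eyes, *Hells* fell as described, and *Dnmt1*, which copies methylation after replication, had a log2 difference of -0.08 (adjusted *p* = 0.542). The median of the 4 was 0.27. In Shh-MBs against control eyes the groups overlapped for all 4, and the log2 difference was -0.20 in *Dnmt3a* (adjusted *p* = 0.45, 0.47 with median centring), -0.19 in *Tet2* (adjusted *p* = 0.401, 0.48 with median centring) and -0.05 in *Dnmt1* (adjusted *p* = 0.725, 0.62 with median centring). The median-centred differences passed the test (adjusted *p* = 0.0419, 0.0273 and 0.0119 in this order), but those with quantile normalization or scaling to the total did not.

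*Dnmt3a* had a signal of 347, 352, 334, 380 and 342 in *RBS* lesions, of 225, 153, 159 and 215 in control eyes, and of 184, 164 and 140 in Shh-MBs. The *RBS* lesions stood close together above all other samples, and control eyes and Shh-MBs overlapped. The signal was 1.89-fold that of control eyes (log2 difference 0.92, SE 0.13, adjusted *p* = 0.000426) and 2.16-fold that of Shh-MBs (log2 difference 1.11, SE 0.11, adjusted *p* = 6.79e-05), the latter being 0.27 with median centring (adjusted *p* = 0.0743). *Tet2* had 222, 218, 192, 250 and 246 in *RBS* lesions, 182, 125, 145 and 134 in control eyes, and 144, 119 and 122 in Shh-MBs. Again no *RBS* lesion overlapped with another group, and the log2 difference against control eyes was 0.62 (SE 0.13, adjusted *p* = 0.00352). Against Shh-MBs the *Tet2* difference was 0.81 (adjusted *p* = 0.000644), and 0.44 when scaled to the total (adjusted *p* = 0.0137). It did not pass at -0.04 with median centring (adjusted *p* = 0.823) and 0.21 with quantile normalization (adjusted *p* = 0.111). *Dnmt1* had 418 to 524 in *RBS* lesions, 446 to 513 in control eyes and 464 to 489 in Shh-MBs.

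The neuronal list rose beside these genes: 7 of its 8 genes rose against control eyes (panel 33.0%) and none fell, with a median of 2.00. *Baiap3* sat at the floor of 3 control eyes and 1 Shh-MB and *Grin2a* at that of 1 *RBS* lesion. Of the 10 blood and immune genes 3 were higher, with sums of 309.6 to 374.1 in *RBS* lesions, against 169.1 to 263.3 in control eyes and *Gzmb* at the floor in 4 control eyes, 4 *RBS* lesions and 3 Shh-MBs. Of 3 endothelial genes 1 was lower (panel 18.2%), with sums of 694.7 to 988.4 and 1789 to 2259. The part of these cell types in the rise of *Setbp1*, *Hdac11*, *Dnmt3a* and the other members was not tested.

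Of the 13 other regulators, 5 rose in *RBS* lesions against control eyes (panel 33.0%), *Setbp1*, *Phf6*, *Atrx*, *Ep300* and *Crebbp*. Among them 1 fell (panel 18.2%), *Kat2b*, and the median of the 13 was 0.18. *Setbp1*, a DNA-binding protein that recruits chromatin complexes and binds SET, had a signal of 357, 463, 394, 435 and 462 in *RBS* lesions, of 187, 191, 163 and 176 in control eyes, and of 240, 282 and 304 in Shh-MBs. The 3 groups did not overlap and had means of 422 ± 46.0 (SD, n = 5), 179 ± 12.6 (n = 4) and 275 ± 32.3 (n = 3). *RBS* lesions had 2.34-fold the *Setbp1* signal of control eyes (log2 difference 1.23, SE 0.11, adjusted *p* = 2.42e-05). Shh-MBs exceeded control eyes in *Setbp1* by 0.61 (adjusted *p* = 0.0063), and by 1.28 with median centring. *RBS* lesions exceeded Shh-MBs by 0.62 (adjusted *p* = 0.00372), a difference that was -0.23 with median centring.

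*Phf6*, a plant homeodomain protein that binds the NuRD complex, was higher in both lesions and tumors. It had 842, 934, 833, 929 and 912 in *RBS* lesions, 626, 624, 573 and 494 in control eyes, and 934, 980 and 938 in Shh-MBs. Control eyes lay below all other samples, and the highest *RBS* lesion was just above the lowest Shh-MB. The log2 difference was 0.62 (SE 0.10, adjusted *p* = 0.00063) in *RBS* lesions and 0.72 (SE 0.11, adjusted *p* = 0.00255) in Shh-MBs, each against control eyes, and the latter was 1.39 with median centring. Between *RBS* lesions and Shh-MBs it was -0.10 (adjusted *p* = 0.385), but *Phf6* was lower in *RBS* lesions at -0.94 with median centring (adjusted *p* = 0.000413), -0.49 with quantile normalization (adjusted *p* = 0.000595) and -0.47 when scaled to the total (adjusted *p* = 0.00263).

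*Atrx* and *Daxx* together place a histone H3 variant at repeats and telomeres. *Atrx* had 1207, 1533, 1515, 1401 and 1630 in *RBS* lesions, 992, 1006, 872 and 979 in control eyes, and 680, 751 and 844 in Shh-MBs. The groups did not overlap. *RBS* lesions had 1.51-fold the *Atrx* signal of control eyes (log2 difference 0.59, SE 0.11, adjusted *p* = 0.00142), and *Daxx* had 89.1 to 117 and 78.4 to 99.1, a log2 difference of 0.16 (adjusted *p* = 0.245). *RBS* lesions exceeded Shh-MBs in *Atrx* by 0.94 (adjusted *p* = 0.000368), which was 0.09 with median centring (adjusted *p* = 0.682), while Shh-MBs against control eyes had a difference of -0.35 (adjusted *p* = 0.048) that became 0.32 with median centring and lost its call without any 1 of 5 samples.

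Acetyltransferases add acetyl groups to histones. The paralogs *Ep300* and *Crebbp* are coactivators with broadly shared targets. *Ep300* had 613, 638, 587, 699 and 620 in *RBS* lesions, 533, 509, 404 and 479 in control eyes, and 279, 267 and 287 in Shh-MBs, and the groups did not overlap. It rose by 0.40 in *RBS* lesions against control eyes (adjusted *p* = 0.0106), exceeded Shh-MBs 2.27-fold (log2 difference 1.18, SE 0.09, adjusted *p* = 2.13e-05), and fell by 0.79 in Shh-MBs against control eyes (SE 0.12, adjusted *p* = 0.0022), differences that in this order were 0.22 (adjusted *p* = 0.118), 0.34 (adjusted *p* = 0.0421) and -0.12 (adjusted *p* = 0.516) with median centring. *Crebbp* rose by 0.36 in *RBS* lesions (adjusted *p* = 0.0127), from 687 to 926 in control eyes to 982 to 1079, and did not pass at 0.18 with median centring (adjusted *p* = 0.148) and 0.16 with quantile normalization (adjusted *p* = 0.103).

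*Kat2b*, an acetyltransferase also called PCAF, fell in *RBS* lesions. It had 214, 156, 179, 194 and 151 in *RBS* lesions, 273, 262, 271 and 262 in control eyes, and 162, 170 and 148 in Shh-MBs. The 4 control eyes were nearly equal and above all lesions and tumors, which overlapped. The log2 difference between *RBS* lesions and control eyes was -0.59 (SE 0.12, adjusted *p* = 0.00247), and Shh-MBs against control eyes had a difference of -0.74 (SE 0.09, adjusted *p* = 0.000709), which in *Kat2b* was -0.07 with median centring (adjusted *p* = 0.688) and -0.37 with quantile normalization (adjusted *p* = 0.00984).

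Corepressors bring deacetylases and other silencing enzymes to repressed genes. *Bcor*, a corepressor of BCL6 and subunit of a variant Polycomb complex, had a signal of 386, 385, 360, 483 and 365 in *RBS* lesions, of 358, 338, 277 and 291 in control eyes, and of 88.7, 99.8 and 88.9 in Shh-MBs. All eyes had more than any Shh-MB. Control eyes exceeded Shh-MBs 3.38-fold (log2 difference -1.76, SE 0.13, adjusted *p* = 7.15e-05), and *RBS* lesions exceeded them 4.23-fold (log2 difference 2.08, SE 0.12, adjusted *p* = 5.2e-06). With median centring these *Bcor* differences were -1.09 and 1.23, still past the test. Among samples with *Uty* the log2 differences were -1.57 and 2.00. *RBS* lesions and control eyes did not overlap but were apart by 0.32 with an adjusted *p* of 0.0508.

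*Sin3a*, the scaffold of a deacetylase complex, had a log2 difference of -0.25 in *RBS* lesions against control eyes (adjusted *p* = 0.0562) that passed the test at -0.43 with median centring, -0.51 with quantile normalization and -0.32 when scaled to the total, and *Ncor1*, a nuclear receptor corepressor, one of 0.08 (adjusted *p* = 0.533) that was -0.19 with quantile normalization. *Bap1*, a histone deubiquitinase, its partner *Asxl1*, and the menin gene *Men1*, which tethers methyltransferases to chromatin, had log2 differences of 0.18, 0.05 and 0.14 and did not pass the test. In Shh-MBs, the mesenchymal list was far lower than in control eyes, with 6 of its 8 genes lower (panel 31.4%) and 1 higher (panel 9.61%). *Comp* was at the floor in 2 control eyes, 2 Shh-MBs and 5 *RBS* lesions. Of the 3 endothelial genes 2 were lower, with sums of 129.0 to 234.8 against 1789 to 2259, and of the 8 neuronal genes 5 were higher and 1 lower. The part of these cell types in the low *Bcor*, *Ep300* and *Arid1a* of Shh-MBs was not tested.

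**Figure D4:**
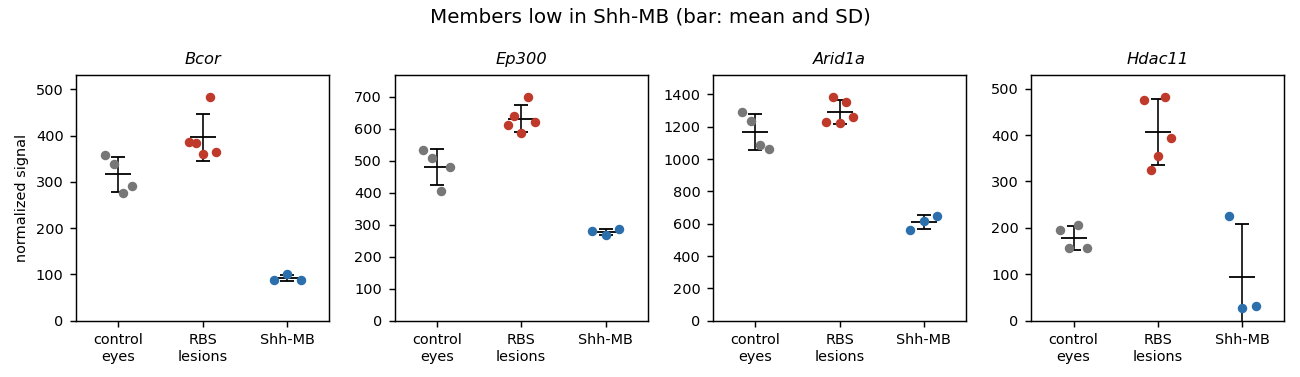
Normalized signal of *Bcor*, *Ep300*, *Arid1a* and *Hdac11* in each sample on the y axis, by group on the x axis, with the mean and SD as bars. Shh-MBs are below all eyes in *Bcor*, *Ep300* and *Arid1a*, while 1 Shh-MB has a *Hdac11* signal of 225 and the other 2 have 27.7 and 32.0.

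Ratios between related genes within a sample do not depend on the factor by which a sample was scaled. The ratio of *Dnmt1* to *Dnmt3a* was 1.51, 1.25, 1.25, 1.30 and 1.33 in *RBS* lesions, 2.28, 3.32, 3.10 and 2.08 in control eyes, and 2.52, 2.84 and 3.50 in Shh-MBs. *RBS* lesions were below all other samples, by -0.99 on the log2 scale against control eyes (exact permutation test, two-sided, *p* = 0.00794) and by -1.14 against Shh-MBs (exact *p* = 0.0179). These are the smallest *p* that 5 samples against 4 and 5 against 3 can give. The ratio of *Hdac1* to *Hdac2* was 0.211 to 0.315 in *RBS* lesions, 0.320 to 0.424 in control eyes and 0.144 to 0.246 in Shh-MBs. It was lower in *RBS* lesions by -0.56 (exact *p* = 0.0159) and in Shh-MBs by -0.92 (exact *p* = 0.0286), each against control eyes without overlap.

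The ratio of *Crebbp* to *Ep300* was 1.47 to 1.76 in *RBS* lesions, against 1.59 to 1.74 in control eyes, a log2 difference of -0.04 (exact *p* = 0.603), and 2.31 to 2.41 in Shh-MBs, 0.48 above control eyes (exact *p* = 0.0286). The ratio of *Whsc1* to *Whsc1l1* was 1.90 to 2.25, 2.16 to 2.65 and 3.22 to 3.79 in the same order. Of the 8 ratios in 3 comparisons, 24 in all, none passed the test after adjustment, where the lowest adjusted *p* was 0.0686. Before adjustment 11 of the 24 had an exact *p* under 0.05, and in 9 the groups did not overlap. Ratios of *Hdac4* to *Hdac5*, *Hdac6* to *Hdac10* and *Arid2* to *Pbrm1* overlapped in every comparison.

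**Figure D5:**
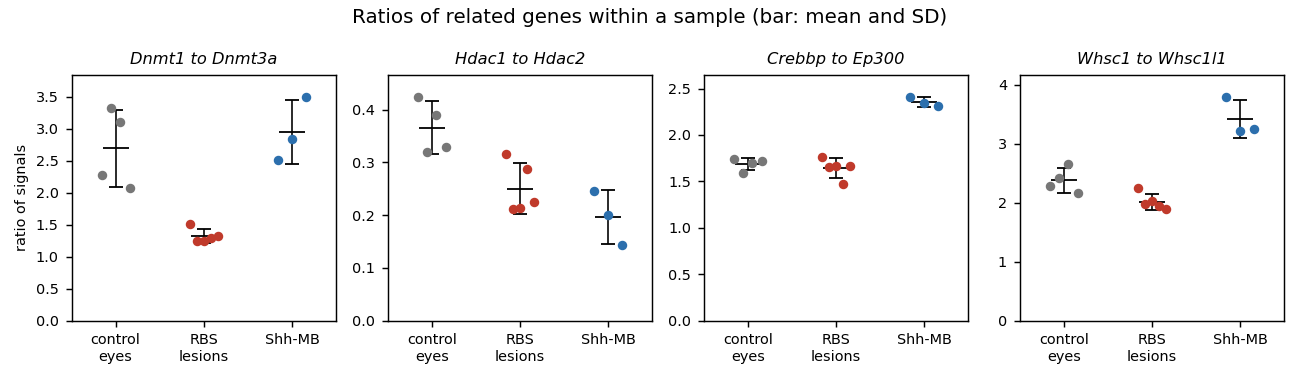
Ratio of normalized signals of related genes in each sample on the y axis, by group on the x axis, with the mean and SD as bars. The ratio of *Dnmt1* to *Dnmt3a* is 1.25 to 1.51 in the 5 *RBS* lesions and 2.08 or more in all control eyes and Shh-MBs.

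Of 42 further chromatin genes listed from general knowledge, 11 were on the panel. Against control eyes 3 of the 11 rose in *RBS* lesions (panel 33.0%) and 5 fell (panel 18.2%). The 4 largest differences were those of the replication-dependent histone genes *Hist2h3b* (-1.57, from a mean of 195200 to 65480) and *Hist1h3b* (-1.57, from 81740 to 27580) and of the architectural proteins *Hmga1* (-1.22, from 781.6 to 337.0) and *Hmga2* (-1.11, from 215.6 to 98.71), all lower in *RBS* lesions. These H3 genes belong to a multigene family, so their probes may count related copies.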

How the data were processed

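The authors used the nSolver software and its nCounter Advanced Analysis module to normalize counts. The deposited values hold this signal before the log2 step of their methods. Background has been subtracted and low values sit at a floor, with settings not given in the sources used here. The geometric mean of the panel's 20 reference genes, *Hdac3* among them, was equal in all 12 samples within 0.000126%. Whole counts could not be recovered, so no count test was run. Each sample is an individual animal.

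Tests ran on log2(signal + 1), and no gene was filtered out. Groups were compared in pairs by limma (version 3.58.1, R 4.3.3, two-sided test, Benjamini-Hochberg adjustment over 770 genes, threshold 0.05), so fold changes are on that scale. Ratios were tested by exact permutation over samples, adjusted over 24 tests. Groups without overlap have every sample of one above every sample of the other. The steps were tested on simulated data. Python 3.11.15 and matplotlib 3.10.9 drew the figures. Symbols matched RefSeq directly for 37 members and by an older symbol for 2.

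Values in every sample were given for members that passed the test without overlap, up to the 8 largest rises and 8 largest falls in *RBS* lesions against control eyes, or the 4 largest in either direction elsewhere, and for *Hdac3*, *Kdm5c* and *Kdm6a*. Other members named with differences against Shh-MBs or in Shh-MBs against control eyes were chosen after their values were seen. The members, lists and rules were chosen with earlier results of these data known. Alternatives were 4 scalings (sample median, quantile, total signal without the 3 most abundant genes, reference genes without *Hdac3*), a pseudocount of 5, values under 20 set to 20, a filter at a mean of log2 of 20, limma with trend and robust settings, the methods' *t*-test (Welch) on the same values with Benjamini-Hochberg or step-down Bonferroni adjustment, all 12 samples in 1 fit, a replicate block, a term for *Uty* above 100, and leaving out each sample in turn.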

Additional observations from a re-analysis of the deposited data

Results flagged for a closer look

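Among 78 sets of values, each 1 member in the control eyes or in the *RBS* lesions, 2 held a sample far from the others by Dixon's test, where chance gives about 1 in 20. *Suv39h2* was 368.3 in control eye 2 and 280.8 to 292.7 in the other control eyes. *Bcor* was 483.4 in *RBS* lesion 4 and 360.0 to 386.1 in the other *RBS* lesions.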

How the results depend on the processing

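Of 39 members, 20 passed the test in *RBS* lesions against control eyes, 23 in *RBS* lesions against Shh-MBs and 14 in Shh-MBs against control eyes. Leaving out each sample in turn gave 16 to 22, 19 to 26 and 10 to 16 (350 to 392, 423 to 478 and 250 to 313 of the panel), and 15, 19 and 10 of the calls held each time; those lost in some were *Hdac1*, *Hdac4*, *Nsd1*, *Setd2* and *Smarcb1*, then *Hdac4*, *Nsd1*, *Pbrm1* and *Smarcb1*, then *Kdm5c*, *Kdm6a*, *Sin3a* and *Atrx*. Median centring gave 13 against control eyes (354 of the panel). The methods' *t*-test with step-down Bonferroni adjustment gave 2, 6 and 1 members (72, 80 and 36 of the panel), and with a term for *Uty* 6 members (182 of the panel) passed in Shh-MBs against control eyes. The ratios gave 0 calls, also with each sample left out, where exact tests on smaller groups could hardly reach the threshold and say nothing about stability. Replicate numbers did not pair the samples (correlations of same-numbered samples -0.12 to 0.181), and with a replicate block 13, 17 and 6 members (301, 407 and 230 of the panel) passed. Differences changed sign, past the test or not, in 5, 7, 1 and 0 of the 39 members in *RBS* lesions against control eyes (median centring, quantile normalization, total, other reference genes), in 23, 17, 10 and 2 against Shh-MBs, and in 24, 14, 14 and 0 in Shh-MBs against control eyes; among members past the test these were 0, 1, 0 and 0, then 14, 7, 3 and 0, then 6, 0, 0 and 0. Examples past the test in either setting are, with quantile normalization, *Nsd1* (-0.0091) and *Ncor1* (-0.19) in *RBS* lesions against control eyes. In *RBS* lesions against Shh-MBs examples are, with median centring, *Hdac1* (-0.53), *Hdac3* (-0.48), *Whsc1l1* (-0.093), *Smarca4* (-0.15), *Kat2b* (-0.70) and *Setbp1* (-0.23), with quantile normalization, *Hdac3* (-0.11) and *Kat2b* (-0.45), and with scaling to the total, *Hdac3* (-0.013). In Shh-MBs against control eyes examples are, with median centring, *Hdac3* (0.58), *Smarca4* (0.20), *Dnmt3a* (0.47) and *Atrx* (0.32). The cause was not tested. The number of samples per group, and depth for *Arid2*, limit what differences could be detected.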
